A study of Mus musculus with 13 samples.

Results

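The 10 HoxB genes, Hoxb1 to Hoxb9 and Hoxb13, were followed through ATAC-seq peak lists of cultured mouse oligodendrocyte progenitor cells (OPCs). They were protein-coding genes of the cluster, taken by symbol, and they made up 10 of the 55450 genes in the GENCODE M21 annotation. A promoter was the stretch between 2 kb before and 1 kb after each annotated transcription start, and it was counted as called in a library when at least 1 bp of it lay in a peak. All other peaks were also taken between points 10 kb outside either end of the cluster, a window of 193.941 kb on chromosome 11 (mm10, 96184316 to 96378256).

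The 13 libraries came from OPC cultures of pups aged 5 to 7 postnatal days, and all cultures were kept dividing in medium with PDGF, CNTF, neurotrophin-3 and forskolin. Tissue had been pooled by region (brainstem or dorsal telencephalon) and genotype before OPCs were panned on an antibody to PDGFRa, so a library stands for a pool of littermates and not for an animal. K27M cultures carried a conditional knock-in of histone H3.3 K27M activated by hGFAP-Cre (AMGFAP-Cre;K27M litters, FVB background), which is driven in neural progenitors and their descendants, and control cultures came from littermates. There were 3 control brainstem cultures (51, 59 and 61), 3 K27M brainstem cultures (41, 59 and 61), 3 control telencephalon cultures (51, 59 and 61) and 4 K27M telencephalon cultures (41, 51, 59 and 61). ATAC-seq cuts accessible DNA with the Tn5 transposase, and each deposited peak carries a fold enrichment relative to nearby background in the same library.

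The lists held 16879 to 52466 peaks per library and no read counts, so sequencing depth was unknown and no limit could be set on what a missing call allows. A promoter without a peak was therefore read as not called, and not as closed chromatin. Promoters of the OPC genes Pdgfra, Olig1, Olig2 and Sox10 were called in 13 of 13 libraries, and that of the fifth OPC marker, Cspg4, in 3. Of the marker genes of other cells, 5 of 5 neuronal, 4 of 4 astrocyte, 2 of 5 microglial and 2 of 4 endothelial promoters were called in at least 1 library. Among these, 3 neuronal promoters (Snap25, Syt1 and Tubb3) and 1 astrocyte promoter (Gfap) were called in 13 of 13 libraries. Calls at these promoters therefore do not separate OPCs from other cells. Microglial promoters numbered 0 to 1 per brainstem library and 0 to 2 per telencephalon library. The part of other cells in the HoxB peaks was not tested.

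Hox genes encode homeodomain transcription factors that specify position along the body axis. They lie in clusters whose order on the chromosome matches the order of their expression domains, with genes at the Hoxb1 end expressed as far forward as the hindbrain and genes at the Hoxb13 end in the tail region. The telencephalon develops in front of all Hox expression domains, and Hox clusters that are not in use are typically covered by Polycomb and its mark H3K27me3, the modification that K27M reduces.

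Sequences are shown from the longest stretch of DNA that the largest number of libraries shared in the peaks of Hoxb3 and Hoxb2. These stretches carry regional calls. The Hoxb1 promoter is shown as that of a member that was called in no library. All are from GRCm38.p6 (mm10) on the plus strand, the stretches at Hoxb3 and Hoxb2 read from the genome and the last from the RefSeq promoter table, in which 3 of the 10 members were found. Capitals mark a match to TGATNNAT, the Pbx-Hox motif. The other motifs searched, on both strands, were TGACAG (Meis), TAATTA (homeodomain) and pairs of AGGTCA separated by 2 or 5 bases (retinoic acid receptor).
Hoxb3 and Gm11536 peak, chr11:96341928-96342227: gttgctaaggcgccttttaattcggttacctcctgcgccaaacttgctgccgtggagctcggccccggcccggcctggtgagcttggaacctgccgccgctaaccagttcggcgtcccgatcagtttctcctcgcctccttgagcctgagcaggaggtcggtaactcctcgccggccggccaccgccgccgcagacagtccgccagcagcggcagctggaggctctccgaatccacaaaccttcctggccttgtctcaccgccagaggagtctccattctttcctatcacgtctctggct
Hoxb2 peak, chr11:96352430-96352729: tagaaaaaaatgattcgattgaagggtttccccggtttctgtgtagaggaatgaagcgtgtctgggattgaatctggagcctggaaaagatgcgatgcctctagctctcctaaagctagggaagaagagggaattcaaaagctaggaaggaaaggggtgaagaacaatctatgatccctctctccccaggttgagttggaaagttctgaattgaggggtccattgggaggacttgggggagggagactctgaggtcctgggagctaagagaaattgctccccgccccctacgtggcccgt
Hoxb1 promoter, chr11:96365508-96365751: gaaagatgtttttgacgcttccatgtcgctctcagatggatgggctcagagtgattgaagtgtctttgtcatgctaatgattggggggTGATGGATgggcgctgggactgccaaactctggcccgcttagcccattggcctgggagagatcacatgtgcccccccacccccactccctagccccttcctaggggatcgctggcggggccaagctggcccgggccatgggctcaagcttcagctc

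The printed Hoxb3 stretch spanned the start of the antisense gene Gm11536 and was shared by 4 libraries. A shorter stretch of the same merged peak, 96340960 to 96341162, was shared by 4 libraries too. It began 15 bp downstream of a Hoxb3 start, and its sequence was not examined. The Hoxb2 stretch lay downstream of the second Hoxb2 start and was also shared by 4. Neither printed stretch held a match to any of the 4 motifs. Among the centres of 91483 merged peaks of the same 300-base length, 11.4% held the Pbx-Hox motif, 20.8% the Meis motif, 7.50% the homeodomain motif and 0.0230% a retinoic acid receptor pair. The Hoxb1 promoter held 1 Pbx-Hox match, as did 7.54% of 32851 promoters over the same 244 bases, and no match says only that these letters were not in the window.

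The printed Hoxb3 stretch, at the start of Gm11536, was rich in CpG. Its GC content was 63.3%, against a median of 47.7% over the merged peaks of the same length. Its ratio of observed to expected CpG was 0.855, against a median of 0.231. The Hoxb2 stretch was nearer to that median, with 50.3% GC and a CpG ratio of 0.395. The Hoxb1 promoter had 59.4% GC and a ratio of 0.325.

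HoxB promoters were called in brainstem libraries and in no telencephalon library. The number of the 10 promoters called was 3, 1 and 5 in control brainstem cultures 51, 59 and 61, and 5, 3 and 3 in K27M brainstem cultures 41, 59 and 61. With promoters of this size it was 0 in each of the 7 telencephalon libraries, so the regions did not overlap. The mean was 3.33 ± 1.51 (SD, n = 6) in brainstem and 0 (n = 7) in telencephalon. Of the 10 promoters, 6 were called in at least 1 library, all 6 of them in brainstem libraries alone. Of the 23096 promoters called anywhere in the genome, 6.85% were called in brainstem libraries alone and 7.8% in telencephalon libraries alone. These shares were not matched on how often a promoter was called, and a promoter in more than 6 libraries cannot be in brainstem alone. The median member was called in 1.5 libraries, against 0 for the median of all 55450 genes and 12 for the median promoter called in at least 1 library.

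**Figure D1:**
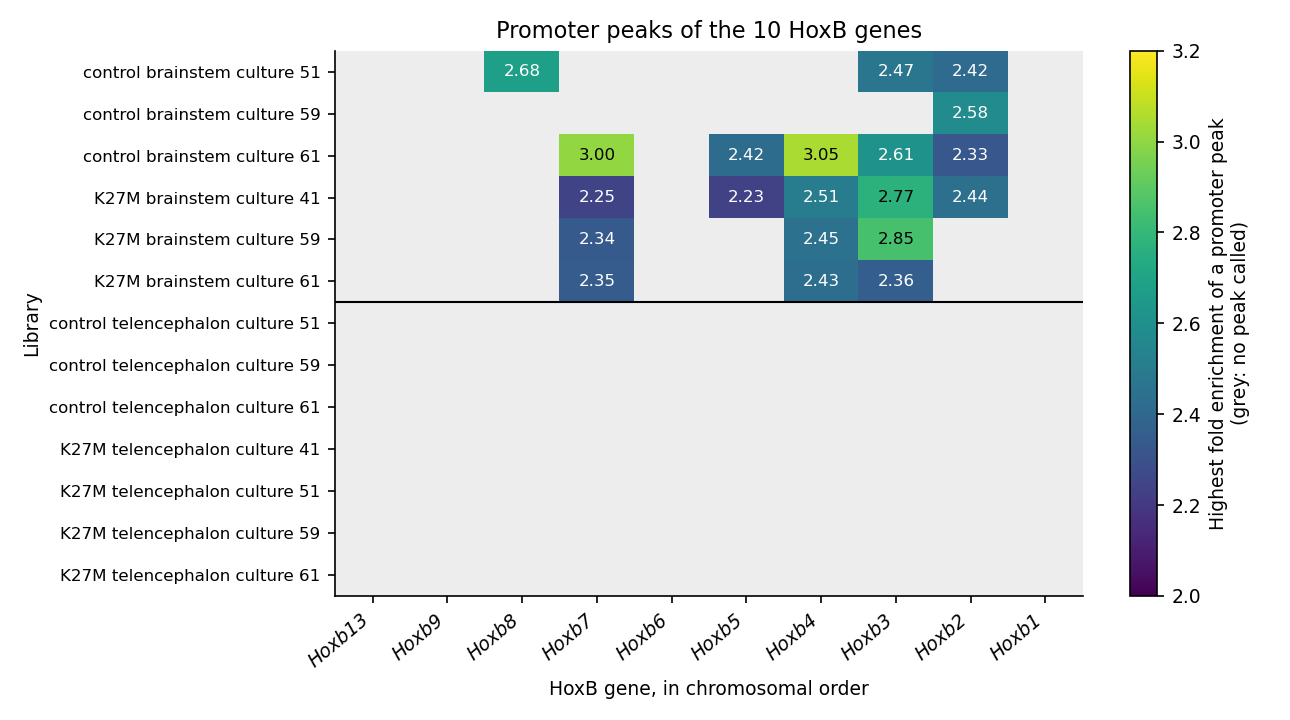
Highest fold enrichment of a called peak over each HoxB promoter (columns, in chromosomal order from Hoxb13 to Hoxb1) in each of the 13 libraries (rows). Colour and printed number give the fold, grey marks no called peak, and the line divides brainstem from telencephalon libraries. Calls run from 2.23 to 3.05 in 6 brainstem libraries and are missing from all 7 telencephalon libraries.

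Hoxb3 (ENSMUSG00000048763.11), a paralogue group 3 gene used in the hindbrain, was the member called most often. It lies at 96323326 to 96347930 and has 4 annotated starts. Its fold enrichment was 2.47 and 2.61 in control brainstem cultures 51 and 61, and 2.77, 2.85 and 2.36 in K27M brainstem cultures 41, 59 and 61. It was not called in control brainstem culture 59 or in any telencephalon library. The count of 5 of 6 brainstem against 0 of 7 telencephalon libraries had an unadjusted p of 0.00466 in a two-sided Fisher's exact test and an adjusted p of 0.564 over the 1815 promoters found in 5 to 8 libraries. In this test 39 (2.15%) of all tested promoters had an unadjusted p under 0.05 by region, 1.32% in the direction of brainstem, and none passed after adjustment. A promoter with no telencephalon call enters the range of 5 to 8 libraries only with 5 or 6 brainstem calls, which fix a p under 0.05. The mean fold of the 5 Hoxb3 calls was 2.61 ± 0.20 (SD, n = 5).

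The Hoxb3 calls did not lie at the outermost start of the gene. They lay at or within 1 kb of its inner start at 96340945, in a merged peak from 96340125 to 96342445 that also held the start of Gm11536, an antisense RNA gene that was accordingly called in the same 5 libraries. The peaks of the 3 K27M cultures covered that Hoxb3 start, while those of control cultures 61 and 51 began 15 and 981 bp downstream of it. K27M brainstem culture 41 had a further peak, from 96343958 to 96344524 with a fold of 2.11, 189 bp downstream of the other inner start at 96343769. In K27M brainstem culture 61 the peak ended at 96341162, and it did not reach the stretch that the other 4 libraries shared. Strand cannot be read from ATAC-seq, so accessibility of Hoxb3 and of Gm11536 could not be told apart. With promoters of 500 bp to either side of a start, Hoxb3 was called in 4 brainstem libraries.

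Hoxb2, Hoxb4 and Hoxb7 were each called in 4 of 6 brainstem libraries. Hoxb2 (ENSMUSG00000075588.6), a paralogue group 2 gene of the hindbrain, had a fold of 2.42, 2.58 and 2.33 in control brainstem cultures 51, 59 and 61, and 2.44 in K27M brainstem culture 41. It was the only member called in all 3 control brainstem libraries. Of the 4 peaks, 2 (in control cultures 51 and 59) began over 500 bp downstream of the nearest Hoxb2 start, and with the 500 bp promoter Hoxb2 was called in 2 libraries. The broad peaks of control culture 61 (3281 bp) and K27M culture 41 (3479 bp) covered the second start and reached the start of the antisense gene Hoxb3os.

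Hoxb4 (ENSMUSG00000038692.8), expressed behind Hoxb3 in the hindbrain and spinal cord, had a fold of 3.05 in control brainstem culture 61 and of 2.51, 2.45 and 2.43 in K27M brainstem cultures 41, 59 and 61. Its merged peak ran from 96317914 to 96320830, over the start and the coding sequence, which is the extent of the peak in K27M culture 41. The peaks of K27M cultures 41 and 59 covered the start. Those of control culture 61 and K27M culture 61 began 189 and 386 bp downstream of it. In K27M cultures 41 and 59 the peak also reached the promoter window of Mir10a, the microRNA gene upstream of Hoxb4.

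Hoxb7 (ENSMUSG00000038721.8), a gene of the trunk spinal cord, had a fold of 3.00 in control brainstem culture 61 and of 2.25, 2.34 and 2.35 in K27M brainstem cultures 41, 59 and 61. These peaks did not all lie at the same place. Those of control culture 61 and K27M cultures 41 and 61 shared 343 bp at the last exon of Hoxb8, from 96284305 to 96284647. The peak of K27M culture 41 (2304 bp) ran on from there to 37 bp upstream of the Hoxb7 start. That of K27M culture 59 lay across the Hoxb7 start. The fold of 3.00 in control culture 61 came from the peak at the Hoxb8 exon, and this library had a second peak, with a fold of 2.37, that began 116 bp downstream of the Hoxb7 start. When at least 200 bp of the promoter had to be covered, Hoxb7 was called in 3 libraries and not in K27M culture 61. With promoters of 500 bp to either side of a start, Hoxb7 was called in 3 brainstem libraries.

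Hoxb2, Hoxb4 and Hoxb7 were outside the tested range of 5 to 8 libraries. With promoters found in 3 to 10 libraries, 4 members (Hoxb2, Hoxb3, Hoxb4 and Hoxb7) had an unadjusted p under 0.05 by region (Fisher's exact test). Of the 4389 promoters tested in that range, 58 (1.32%) did, and none of the 4389 passed after adjustment. These 4 members had no telencephalon call, and 4 or 5 calls in brainstem alone fix such a p. The count of 4 therefore followed from the calls and adds no support to them. The step from 5 to 4 libraries in the order of the members is 1 library, and the fold ranges of these 4 genes overlapped, so their order was not distinguishable.

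The remaining members were called seldom or not at all. Hoxb5 was called in control brainstem culture 61 and K27M brainstem culture 41, with a fold of 2.42 and 2.23. Hoxb8 was called in control brainstem culture 51 alone, with a fold of 2.68 and a peak that lay 1512 bp upstream of its nearest start. Hoxb13, Hoxb9 and Hoxb6 were not called in any library, nor was Hoxb1, the member at the hindbrain end of the cluster.

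K27M and control cultures did not differ in a steady direction. K27M brainstem libraries had 3.67 ± 1.15 (SD, n = 3) HoxB promoters and control brainstem libraries 3.00 ± 2.00 (SD, n = 3), a difference within the spread of the libraries. Within cultures of the same number, K27M had 3 promoters against 1 in culture 59 and 3 against 5 in culture 61, so the sign changed. By genotype, Hoxb3 had an unadjusted p of 1 and an adjusted p of 1 (Fisher's exact test), in a comparison where 22 (1.21%) of the 1815 tested promoters had an unadjusted p under 0.05. The mean difference over all 13 libraries, K27M minus control, was 0.0714 promoters. Brainstem made up 3 of the 7 K27M and 3 of the 6 control libraries, so this mean is not balanced by region.

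Individual members were unevenly divided between the brainstem genotypes. Hoxb4 and Hoxb7 were called in 3 of 3 K27M and 1 of 3 control brainstem libraries, and Hoxb2 in 1 of 3 K27M and 3 of 3 control libraries. With 3 against 3 libraries the smallest p that an exact test can give is 0.1, so no such difference could pass. Among K27M cultures, Hoxb3, Hoxb4 and Hoxb7 were called in 3 of 3 brainstem and 0 of 4 telencephalon libraries, with an unadjusted p of 0.0286, the smallest that Fisher's exact test allows for 3 against 4, and an adjusted p of 1. Of the 1564 promoters tested among K27M cultures, those found in 3 or 4 of the 7 libraries, 2.11% had an unadjusted p under 0.05. A promoter with no telencephalon call entered this test only with calls in all 3 brainstem libraries, which fixes its p. The p of these members therefore adds no support to the calls, and the share of 2.11% is no measure for them.

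**Figure D2:**
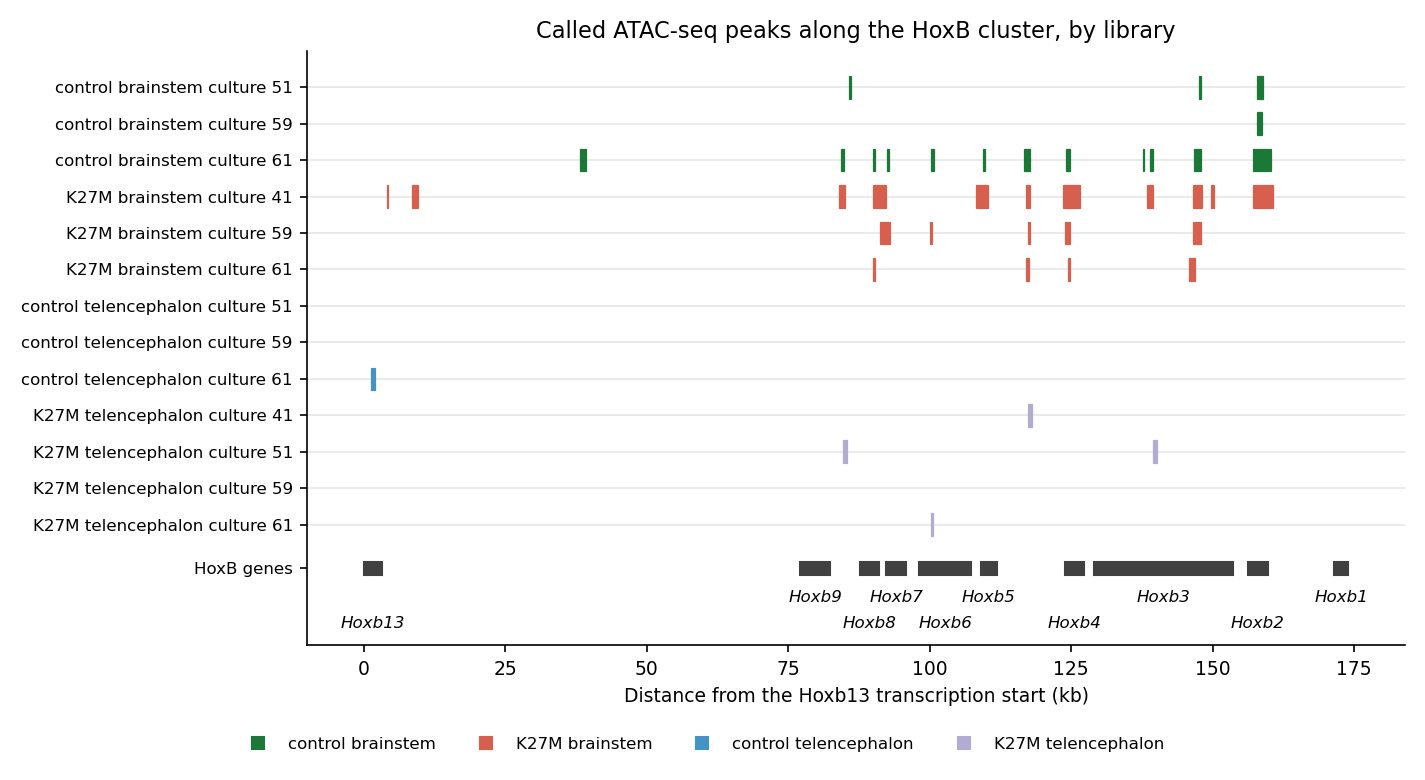
Called peaks (bars, drawn at their width) along the HoxB window in each of the 13 libraries, against distance in kb from the Hoxb13 transcription start, with the 10 genes as dark bars at the bottom. Most of the 36 brainstem peaks lie between Hoxb9 and Hoxb1, and the 5 telencephalon peaks lie in 4 libraries.

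Over the whole window 41 peaks were called, 36 in brainstem and 5 in telencephalon libraries. Control brainstem cultures 51, 59 and 61 had 3, 1 and 12 peaks, covering 1.68, 0.830 and 10.4 kb. K27M brainstem cultures 41, 59 and 61 had 11, 5 and 4 peaks, covering 17.5, 5.07 and 2.38 kb. The 7 telencephalon libraries had 0 to 2 peaks each (median 1), covering 0 to 1.40 kb with a median of 0.354 kb. Brainstem and telencephalon ranges did not overlap in promoters, and they met in peaks and kb, since control brainstem culture 59 had 1 peak of 0.830 kb and K27M telencephalon culture 51 had 2 peaks of 1.40 kb. The mean was 6.31 ± 6.47 kb (SD, n = 6) in brainstem and 0.457 ± 0.527 kb (SD, n = 7) in telencephalon. Without K27M brainstem culture 41, which had the longest coverage, the difference of 5.85 kb was 3.62 kb.

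None of the 5 telencephalon peaks overlapped a HoxB promoter. K27M telencephalon culture 51 had a peak between Hoxb9 and Hoxb8 and another in an intron of Hoxb3. K27M telencephalon culture 41 had a peak between Hoxb5 and Hoxb4, and culture 61 of the same group had a peak in an intron of Hoxb6. The only peak in control telencephalon was that of culture 61 in an exon of Hoxb13, and control telencephalon cultures 51 and 59 had none.

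Peaks were sparse between Hoxb13 and Hoxb9 and more frequent in the rest of the cluster. From the Hoxb3 start to the Hoxb1 end (44.931 kb) there were 13 brainstem peaks and 1 telencephalon peak, and this was the only segment with a peak in all 6 brainstem libraries. From the Hoxb5 to the Hoxb3 start (19.99 kb) there were 10 and 1, and from the Hoxb9 to the Hoxb5 start (31.879 kb) 10 and 2. The long stretch between Hoxb13 and Hoxb9 (77.141 kb) held 3 brainstem peaks and 1 telencephalon peak. Neither 10 kb flank held a peak.

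Joined across libraries, the 41 peaks made 17 merged peaks, of which 12 were called in brainstem libraries alone, 2 in telencephalon libraries alone and 3 in both. Over the genome 22.4% of 99746 merged peaks were called in brainstem libraries alone and 26.4% in telencephalon libraries alone. Of the 17, 8 were called in 1 library. The peak at the inner Hoxb3 start (96340125 to 96342445) was in 5 brainstem libraries and had an unadjusted p of 0.00466 and an adjusted p of 0.840 by region (Fisher's exact test over 11706 merged peaks found in 5 to 8 libraries), where 276 (2.36%) of the peaks tested had an unadjusted p under 0.05. By genotype its unadjusted p was 1, against 147 (1.26%) of tested peaks under 0.05. A merged peak called in brainstem alone enters the range of 5 to 8 libraries only with a p under 0.05 by region. No merged peak passed after adjustment in either comparison.

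The other merged peak in the tested range lay at no promoter. It ran from 96311011 to 96312445, 5822 bp upstream of the Hoxb4 start in intergenic DNA, and was called in control brainstem culture 61, in all 3 K27M brainstem cultures and in K27M telencephalon culture 41. Its fold was 3.04 in control brainstem culture 61, 2.46, 2.68 and 2.34 in K27M brainstem cultures 41, 59 and 61, and 2.50 in the telencephalon library. Detection did not differ by region (unadjusted p = 0.103, adjusted p = 1, Fisher's exact test) or by genotype (unadjusted p = 0.266, adjusted p = 1) at the threshold of 0.05. With merged peaks in 3 to 10 libraries, 4 of the 7 HoxB peaks tested had an unadjusted p under 0.05 by region, against 1.44% of 26619 merged peaks. These 4 were called in brainstem libraries alone, where 4 or more calls fix such a p. Merged peaks between Hoxb9 and Hoxb8 (96278190 to 96279639) and in an intron of Hoxb6 (96294298 to 96294983) were each called in 2 brainstem libraries and 1 telencephalon library.

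All HoxB peaks were weak for their libraries. Their fold ran from 2.11 to 3.05, with a median of 2.46, and each of the 41 lay below the median fold of its own peak list. The percentile of the fold within the list ran from 2.23 to 48.3 with a median of 12.2. At Hoxb3 it was 7.51 and 20.0 in control brainstem cultures 51 and 61, and 46.8, 34.8 and 7.72 in K27M brainstem cultures 41, 59 and 61. The −log10 p of the 41 peaks ran from 3.17 to 9.49, and the highest was that over the Hoxb3 start at 96340945 in K27M brainstem culture 41.

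**Figure D3:**
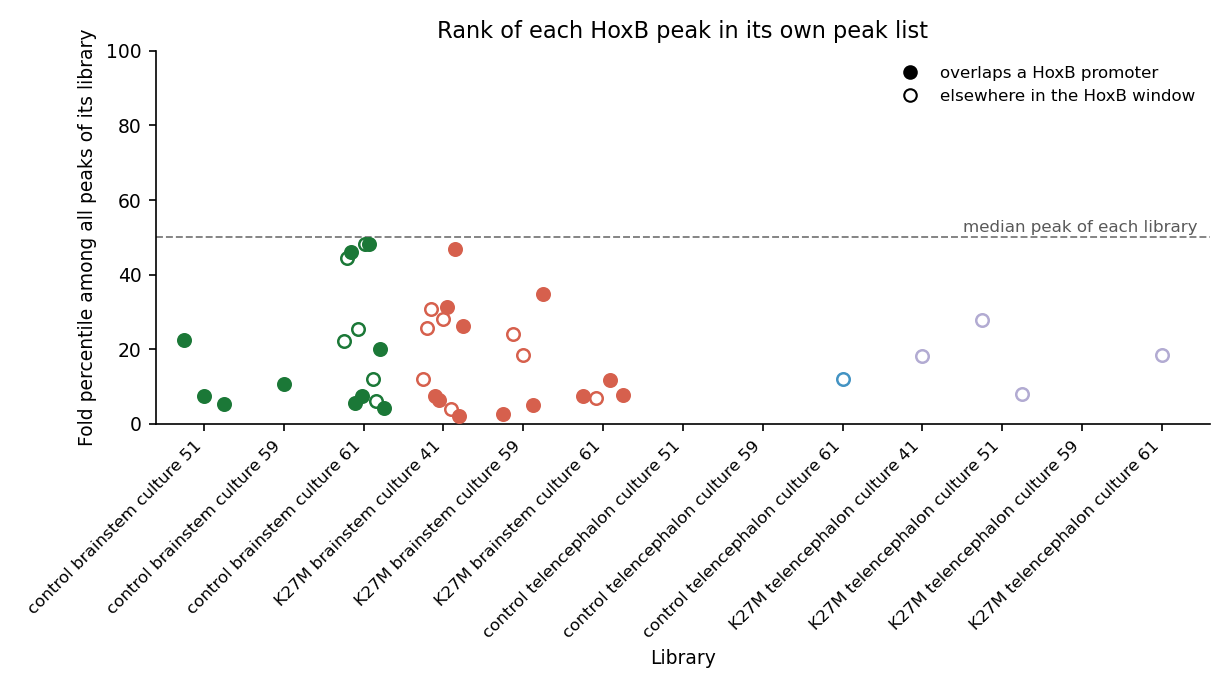
Percentile of the fold of each HoxB peak among all peaks of its own library (vertical axis, 0 to 100) for the 13 libraries. Filled circles overlap a HoxB promoter, open circles lie elsewhere in the window, and the dashed line marks the median peak. All 41 circles sit below the line, the highest at 48.3.

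The number of HoxB promoters called moved with the length of the peak list within brainstem, while no telencephalon list of any length held 1. Among brainstem libraries, the largest lists (52466 peaks in control culture 61 and 48487 in K27M culture 41) had 5 HoxB promoters each, and the lists of 27768 to 34168 peaks had 1 to 3. Among telencephalon libraries, the longest lists (52164 peaks in K27M culture 51 and 45322 in control culture 61) had 0 HoxB promoters, with 2 and 1 HoxB peaks elsewhere in the window. Total peaks were alike in the regions, 37672 ± 10208 (SD, n = 6) in brainstem and 37420 ± 11408 (SD, n = 7) in telencephalon. The part of list length in the HoxB calls beyond the cut to equal numbers was not tested.

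**Figure D4:**
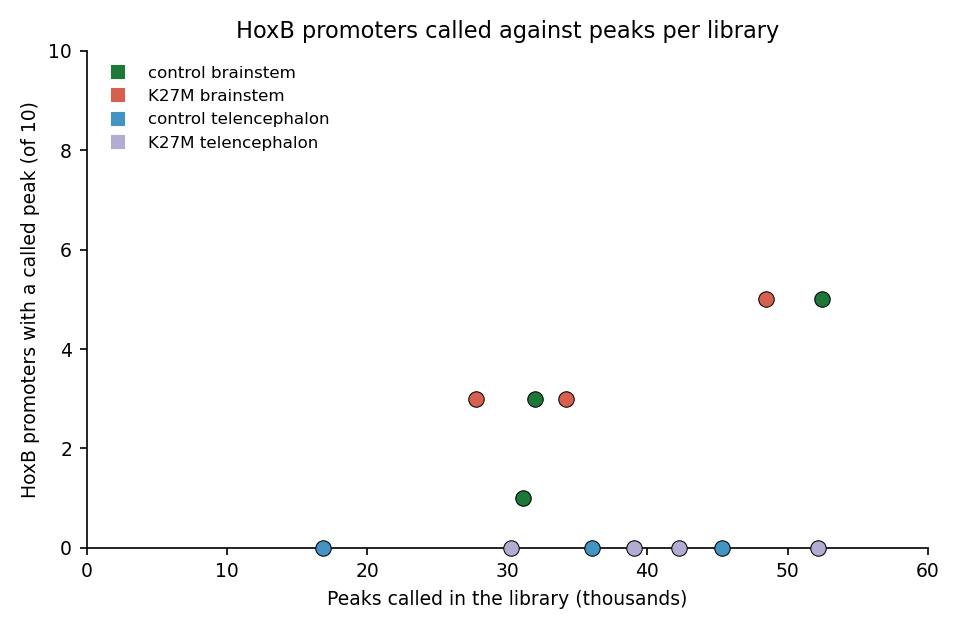
HoxB promoters with a called peak (of 10) against the number of peaks called in the library (axis in units of 1000 peaks), 1 point per library, coloured by group. Brainstem points run from 1 to 5 and all 7 telencephalon points are at 0, with lists of up to 52164 peaks.

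When every list was cut to its 16879 most significant peaks, few HoxB calls were left. There were 2 HoxB peaks, those over the Hoxb3 start at 96340945 in K27M brainstem cultures 41 and 59, and the mean number of HoxB promoters was 0.333 in brainstem and 0 in telencephalon. Of the 41 peaks, 6 had a p of at most 1e-06, all in brainstem libraries, and 0 had a p of at most 1e-10. At 1e-06 Hoxb3 and Hoxb4 were each called in 2 libraries and Hoxb2 in 1.

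The other Hox clusters had calls in telencephalon libraries too. HoxA promoters numbered 4 to 8 of 11 in brainstem and 0 to 3 in telencephalon libraries, HoxC 0 to 4 and 0 to 2 of 9, and HoxD 1 to 7 and 0 to 4 of 9. With promoters of this size, HoxB was thus the only one of the 4 clusters with 0 promoters in every telencephalon library. This difference between clusters was not tested. In the HoxA cluster, Hoxa2 was called in 6 of 6 brainstem and 0 of 7 telencephalon libraries (Fisher's exact test, unadjusted p = 0.000583, adjusted p = 0.212), and Hoxa4 in 4 and 0.

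Calls at genes that act with or upstream of Hox genes showed no such division, although many of them could not have shown one. Promoters of 7 of 9 Hox cofactors, the Meis, Pbx and Pknox genes whose proteins bind DNA with Hox proteins, were called in all 13 libraries, and the other two, Pbx2 and Pknox1, in 11 and 12. Of 12 regulators of Hox genes, 3 were called in all 13 libraries, 6 in some and 3 in none. None of the 21 differed by 4 or more libraries between the regions. A promoter called in all libraries or in none cannot differ in calls, and the fold of these promoters was not compared. Of the 9 noncoding and other genes with a start inside the window, Gm11536 was called in 5 brainstem libraries, Hoxb3os, Hoxb5os and Mir10a in 2 each, and the other 5 in none.

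Across the 13 libraries, the promoter fold most like the mean promoter fold of the HoxB genes (with 0 for a promoter not called) was that of AC129179.2 (Pearson r = 0.947) and Pax3 (r = 0.946), each called in 5 brainstem libraries and no telencephalon library. Irx3 and its antisense gene Irx3os, which share a promoter, followed (r = 0.936), although both were called in all 13 libraries. Gm12811, called in 6 brainstem and 0 telencephalon libraries, had r = 0.929. These values describe 13 libraries that differ in region and peak number, and they carry no test.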

How the data were processed

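ATAC-seq was analysed in 13 libraries grouped by region and genotype from the sample labels. The authors used the nf-core ATAC-seq pipeline, in which BWA (0.7.17-r1188) mapped the reads to mm10, blacklisted regions were dropped and MACS2 (2.2.7.1) called broad peaks library by library. A calling cutoff is not stated for these libraries in the sources used here, and the lowest deposited −log10 q was 1.00. The deposited peak lists give a fold enrichment ratio over local background, a −log10 p-value, a −log10 q-value and a score. The deposited score repeats the −log10 q and was not used further. No value was normalised between libraries, and without read counts the depth and its counting error are unknown.

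Promoter windows covered 2 kb before and 1 kb after GENCODE M21 starts and were called at 1 bp of overlap. Peaks of all libraries that overlapped were joined into merged peaks. Fold percentiles are ranks within a library's own list. Detection in 5 to 8 libraries was tested by Fisher's exact test (two-sided) with Benjamini-Hochberg adjustment over all features (threshold 0.05, scipy 1.17.1, pandas 2.3.3, numpy 2.4.6). The scripts recovered known answers on simulated data. A planned limma comparison of shared peaks gave no HoxB value, since no merged HoxB peak was called in all 13 libraries. Named peaks overlapped a member's promoter or were found in at least 3 libraries, and a peak outside this rule was named after its values were seen (the Hoxb13 exon peak and the Hoxb3 intron peak of telencephalon). The listed genes named were those that differed by at least 4 libraries between regions, and cofactors and markers were added as examples. Sequences came from GRCm38.p6, with annotated untranslated exons left out of the printed stretches, and some sequences and genes are not reported here.

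The groups share culture numbers, and the methods of the study speak of matched culture pairs. Over 13075 peaks shared by all libraries, deviations from group means correlated from -0.098 to 0.271 (median 0.090) in 16 same-number pairs and from -0.251 to 0.295 (median -0.033) in 47 other pairs, so the tests were also run within culture number. Alternatives were equal peak numbers, stricter p-values, other promoter rules and leaving out each library. The members and gene lists were chosen with earlier results of these data known.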

Additional observations from a re-analysis of the deposited data

Results flagged for a closer look

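Control brainstem culture 61 stood apart from the other control libraries in the number of HoxB peaks, with 12 peaks, and in the length covered, with 10.4 kb, where the gap to the nearest library was 0.75 and 0.839 of the range of the group. K27M brainstem culture 41 stood apart from the other K27M libraries with 17.5 kb, a gap of 0.709 of the range. The number of promoters called was not set apart in any group. In all, 13 group and measure pairs were examined for a library far from the rest, and about 1 in 20 would be flagged with no real difference. The compared groups each held both regions, and these libraries had the longest peak lists among brainstem libraries. Their part in the gap was not tested.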

How the results depend on the processing

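The mean difference in HoxB promoters between brainstem and telencephalon, 3.33, was 0.333 at equal peak numbers, 0.833 with peaks of p at most 1e-06 and 0 with p at most 1e-10, and the difference in kb, 5.85, was 0.527 at equal peak numbers, 1.88 with p at most 1e-06 and 0 with p at most 1e-10. The HoxB promoter with an unadjusted p under 0.05 by region, 1 in the main test, was 0 at equal peak numbers, 0 at both stricter p-values and 0 with promoters of 500 bp to either side of a start, and 4 with promoters found in 3 to 10 libraries. The merged HoxB peak under 0.05 by region, also 1, was 0 at equal peak numbers and at both stricter p-values, and 4 with peaks found in 3 to 10 libraries. These zero counts follow from fewer calls, since no member was then in the tested range. The counts of 4 follow from the calls too, since 4 or more calls in brainstem alone fix an unadjusted p under 0.05.

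Leaving out 1 library at a time gave 3 to 3.8 promoters and 3.62 to 6.94 kb for the region difference and 0 to 1 for each count by region, where the count was 0 without 1 of control brainstem cultures 51 and 61 or K27M brainstem cultures 41, 59 and 61, since Hoxb3 was then in 4 libraries. Hoxb3 had an unadjusted p of 0.0101 by Fisher's exact test without each of these 5 in turn, of 0.00126 without control brainstem culture 59 and of 0.0152 without each telencephalon library in turn. The differences by genotype, of either sign, ran from -0.5 to 0.771 promoters and from -0.609 to 3.28 kb, with the lowest value of each without K27M brainstem culture 41 and the highest without control brainstem culture 61, and the counts by genotype were 0 throughout. With the replicate block, in which libraries were compared within culture number, the region differences were 3.5 promoters and 6.63 kb. Hoxb3 then had an unadjusted p of 0.0139 by region (exact test within culture number). The genotype differences in the block were -0.5 promoters and -0.501 kb, the reverse of the sign over all libraries. Culture 51 held K27M from telencephalon alone and control from both regions. These genotype differences, like those over all libraries, therefore mix genotype with region. The block changed no call, while promoters under 0.05 by genotype numbered 13 in place of 22 over all genes. Depth limits every missing call, since no read counts were given.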
